A study of Homo sapiens with 12 samples.

Results

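Resveratrol (RES) was set against 2-CM in NS-SV-AC cells, a human salivary gland acinar cell line, across both of the transfections the study used. The 8 samples were chosen by their titles. The 4 RES and the 4 2-CM libraries were compared with transfection as a block, which used 8 of the 12 samples of the series. Of 60609 annotated genes, the 16940 that reached 1 TPM (the unit of relative transcript abundance, scaled to the same total in every library) in at least 2 of the 8 libraries are described here, and 12933 of them are protein-coding.

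There were 4 groups of 2 replicates, namely RES with depc, RES with poly I:C, 2-CM with depc and 2-CM with poly I:C, where depc is the labels' name for the control transfection. Each compound was at a dose of 20, read here as micromolar, from 24 h before transfection and again together with it. Poly I:C lasted 14 h and the cells were grown for 48 h. All 8 samples are thus compound-treated cells of 1 established line. Nothing in the labels says that replicates were separate cultures, so p-values measure only the spread between these samples. The 4 DMSO libraries, the solvent controls, are quoted beside the results as levels and entered none of the tests reported here, only an alternative fit of all 12 libraries. RNA was selected as messenger RNA with a stranded paired-end kit.

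2-CM is 2'-C-methyladenosine, a ribonucleoside analogue whose triphosphate can be built in by the mitochondrial RNA polymerase POLRMT and then stops the chain. Mitochondrial DNA is a circle that POLRMT reads along both strands into long RNAs, which are cut at the transfer RNA genes that punctuate them. The RNAs of the opposite strands can pair into double-stranded RNA, which the cell can sense as it senses the synthetic duplex poly I:C. Resveratrol is a plant stilbene polyphenol known as an antagonist of the aryl hydrocarbon receptor and for effects on sirtuins and the cell cycle.

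The 8 libraries held 31.2 to 49.4 M estimated reads, and 13765 to 16554 genes reached 1 TPM in a library. Of 9 epithelial markers, 5 reached 1 TPM in at least 2 libraries: KRT8 at 631 to 1958 TPM and KRT18 at 466 to 1571 TPM were abundant, while KRT7, KRT17 and EPCAM stayed under 5 TPM. CDH1 and KRT19 stayed below 1 TPM, and KRT5 and KRT14 were listed at 0. Of the 8 acinar markers, AQP5, AMY1A, MUC7, STATH, PRB1 and LPO stayed below 0.1 TPM in all 8 libraries. The other 2, BHLHA15 at 0.684 to 2.69 TPM and SLC12A2 at 2.19 to 8.11 TPM, reached 1 TPM in at least 2 libraries. The acinar name is taken from the label. OAS2, an interferon-induced gene, was at 0.0838 to 1.17 TPM in the depc libraries and at 47.9 to 154 in the poly I:C libraries, which matches the transfection labels. The first principal component of log2(TPM + 1) held 74.8% of the variance and tracked gene GC content. After GC correction, the first component still held 62.8%, with both 2-CM depc libraries below 0, both 2-CM poly I:C libraries above it, and the RES replicates of each transfection on opposite sides of 0. Without that correction, the second component held 10.2% and separated the compounds in all 8 libraries. Both RES replicate 1 libraries stood apart from their mates in GC profile. For each library, the deviation of a gene from its mean over the 8 libraries was correlated with its GC content across genes. This Spearman correlation was -0.38 in RES depc replicate 1 against 0.76 in replicate 2. In RES poly I:C it was 0.35 in replicate 1 against -0.74 in replicate 2. It was 0.66 and 0.77 in 2-CM depc and -0.76 and -0.70 in 2-CM poly I:C. For the difference across both transfections it was 0.04. For this reason values without both RES replicate 1 libraries are also given. They are counts of calls over all genes and in the gene lists, or medians in place of counts for some of the 23 lists. The counts over all genes, given below, are the background for those in the lists. Leaving these libraries out puts 1 RES library in each transfection, which is assumed to vary like the rest.

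**Figure D1:**
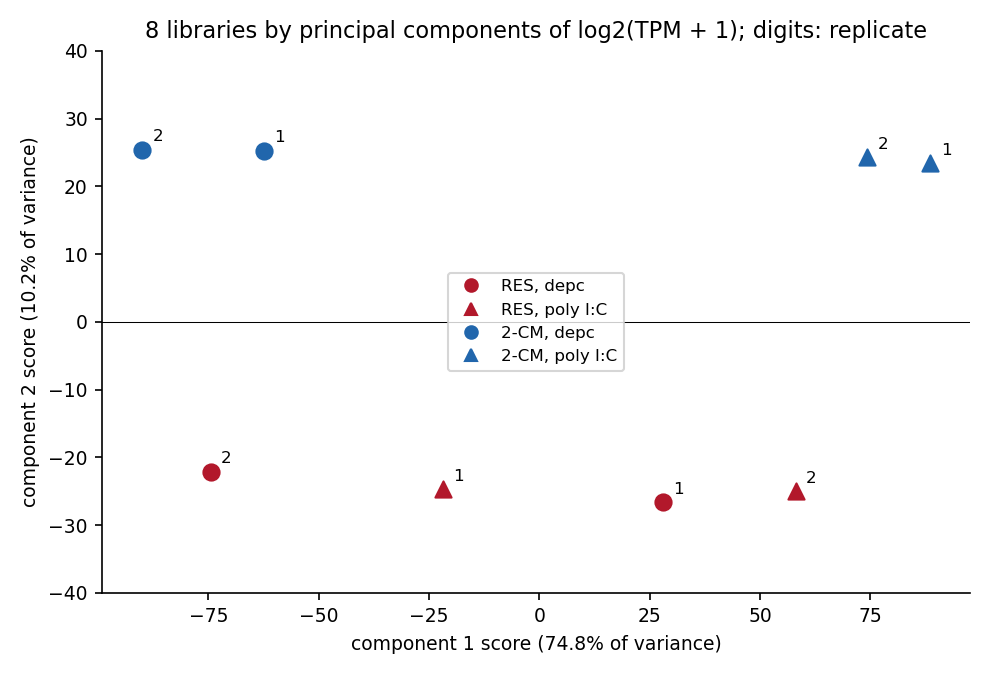
Scores of the 8 libraries on the first principal component of log2(TPM + 1) (x axis, 74.8% of the variance) and the second (y axis, 10.2%), in units of the component. Colours mark the compound, shapes the transfection and digits the replicate; the RES libraries lie between -26.6 and -22.1 on the second component and the 2-CM libraries between 23.4 and 25.4.

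Between the compounds, 84 genes differed across both transfections at an adjusted p under 0.05 (limma, Benjamini-Hochberg over all 16940 genes), which is 0.496% of the genes tested. RES was higher for 48 (0.283%) and lower for 36 (0.213%). Of the 16940 genes, 2099 had an unadjusted p under 0.05, the background for such counts in the gene lists below. The median difference of all genes was -0.03 on the log2(TPM + 1) scale, on which all differences below are RES minus 2-CM. The called genes included 73 protein-coding genes, 6 long noncoding RNAs, 3 pseudogenes and 2 mitochondrial transfer RNA genes. In each of the 84, both RES libraries lay on the same side of both 2-CM libraries in each transfection. Over all genes, the RES libraries lay above the 2-CM libraries in each transfection for 1276 (7.53%) and below them for 1069 (6.31%). Without both RES replicate 1 libraries, 393 genes were called higher (2.32%) and 763 lower (4.5%), and these held all 84. Of the 84, 9 reached 1 TPM in RES libraries alone and 3 in 2-CM libraries alone, so they entered the test through the group where they were high. Genes such as FHIT, which reached 1 TPM in too few 2-CM libraries to pass by them alone, are not in these counts. The count rested on single libraries: it was 0 without 2-CM depc replicate 1 and without 2-CM poly I:C replicate 2, 1 without RES poly I:C replicate 2, 3 without 2-CM depc replicate 2, 4 without 2-CM poly I:C replicate 1, 6 without RES depc replicate 2, 49 without RES poly I:C replicate 1 and 372 without RES depc replicate 1. All 84 kept their sign in each of these fits, but this was fixed in advance. Since the compounds did not overlap within a transfection, leaving out 1 library could not reverse a sign. Rescaling changed which genes were called: median-of-ratios scaling called 115 genes, 39 of them among the 84, and upper-quartile scaling 115, of which 53. With mitochondrial genes left out of the TPM sum, the median of all genes moved to 0.13 and the split to 87 higher and 27 lower.

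The called genes divided by where the DMSO libraries lay. For 54 of the 84, the mean of the DMSO libraries on the log2 scale was nearer to 2-CM than to RES in both transfections, for 12 it was nearer to RES in both, and for 18 the transfections differed. Of the 8 called mitochondrially encoded genes, 7 were among the 12 nearer to RES. With those 8 left out, 31 of the 41 genes higher under RES and 22 of the 35 lower ones were nearer to 2-CM in both transfections. These positions are a description of means and were not tested, and some of them are near ties. The same count was not made over all genes, so no background share stands beside it.

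Of the 13 mitochondrially encoded messenger RNAs, 6 were called higher under RES and the other 7 had positive differences that did not pass. The 13 genes code for subunits of the respiratory chain and ATP synthase, and together they took 22.3% and 25.2% of all TPM in the RES depc libraries, 29.7% and 27.6% in RES poly I:C, 17.2% and 16.9% in 2-CM depc, and 17.2% and 18.2% in 2-CM poly I:C. All 4 RES libraries lay above all 4 2-CM libraries. The DMSO libraries, at 24.6%, 25.7%, 25.5% and 29.7%, lay within or near the RES range and above every 2-CM library. RES exceeded 2-CM by 8.86 percentage points on average, 6.75 with depc and 10.97 with poly I:C, with a two-sided exact permutation p of 0.0556, the smallest that the 36 assignments within transfection allow. As a share of estimated reads the difference was 5.29 points. By gene, the 6 calls of 13 stand against 0.283% of all genes, and the median difference was 0.55, against -0.03 for all genes tested. In estimated reads with voom 6 were called as well and with GC correction 5, where 109 and 119 of all 16940 genes were called higher. Without both RES replicate 1 libraries the median was 0.55, against -0.08 for all genes. The calls did not hold under other scalings: 0 of the 13 were called with median-of-ratios or upper-quartile scaling, and 1 with FPKM, with no trend of variance and with no filter. All 13 differences are positive on the TPM scale, and the median was 0.56 with median-of-ratios and 0.59 with upper-quartile scaling.

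MT-ATP6, the membrane subunit of ATP synthase (ENSG00000198899.2, chrM:8527-9207, plus strand), was at 23179 and 27032 TPM with depc and 37658 and 35178 with poly I:C under RES. Under 2-CM it was at 14577 and 13653 TPM with depc and 15788 and 17376 with poly I:C, with no overlap. The DMSO libraries held 27505, 29252, 31949.8 and 36869 TPM, near the RES levels. The difference was 0.98 (SE 0.11, limma adjusted p 0.0152). MT-ATP8, a second ATP synthase subunit whose gene overlaps it and whose reads can therefore be shared, differed by 1.03 (SE 0.10, limma adjusted p 0.01). MT-CO3, a subunit of cytochrome c oxidase, had 33664 to 43769.7 TPM under RES, 20308 to 25751 under 2-CM and 35744 to 53406 under DMSO, a difference of 0.79 (SE 0.09, limma adjusted p 0.0154). MT-CYB, the cytochrome b of complex III, differed by 0.81 (SE 0.10, limma adjusted p 0.0262), and the complex I subunits MT-ND3 and MT-ND2 by 0.84 (adjusted p 0.0298) and 0.66 (adjusted p 0.0296). The other mitochondrial messengers did not pass, among them MT-ND4 at 0.55 (adjusted p 0.0508), MT-CO1 at 0.38 (adjusted p 0.131) and MT-ND1, the messenger nearest to the ribosomal genes, at 0.07 (adjusted p 0.947).

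The differences were not uniform along the mitochondrial map, and the genes at its ends were called in opposite directions. MT-TF, the phenylalanine transfer RNA gene, is the first gene read from the heavy-strand promoter, and MT-TP, the proline transfer RNA gene on the other strand, is the first met from the light-strand promoter. Both are shown from the hg38 reference on their own strand, with the anticodon in capitals, because they were the called mitochondrial genes with the largest differences.
MT-TF (chrM:577-647, plus strand): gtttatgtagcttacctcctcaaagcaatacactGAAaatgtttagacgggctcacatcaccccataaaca
MT-TP (chrM:15956-16023, minus strand): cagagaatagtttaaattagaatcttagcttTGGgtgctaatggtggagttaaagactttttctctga
MT-TF was at 157 and 156 TPM with depc and 136 and 169.8 with poly I:C under RES. Under 2-CM it was at 515 and 466 TPM with depc and 585 and 485 with poly I:C, and DMSO held 153, 179, 191 and 155 TPM, so the 2-CM libraries were the high ones. The difference was -1.72 (SE 0.13, limma adjusted p 0.00501). MT-RNR1, the small ribosomal RNA that follows it, was also at lower values under RES, 3048 to 4104 TPM against 5624 to 7418 under 2-CM and 2545 to 3512 under DMSO, and its difference of -0.87 did not pass (adjusted p 0.0508). MT-RNR2, the large ribosomal RNA next in order, differed by -0.02 (adjusted p 0.997). By transfection it differed by 0.24 with depc and -0.29 with poly I:C, with no overlap between the compounds in either.

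MT-TP showed the opposite arrangement. It was at 3050.3 and 3349.8 TPM with depc and 3142 and 3036 with poly I:C under RES and at 1089 and 1271 TPM with depc and 893 and 890.5 with poly I:C under 2-CM. DMSO held 929.7, 1304, 1248 and 1409 TPM, so here the RES libraries were the high ones. The difference was 1.62 (SE 0.12, limma adjusted p 0.00501). Among the 22 transfer RNA genes, 1 was called higher and 1 lower, against 0.283% and 0.213% of all genes, 12 had positive and 10 negative differences, and the median was 0.08. MT-TG, MT-TR, MT-TH, MT-TS2 and MT-TL2, which sit among messengers with positive values, had differences of -0.68, -0.59, -0.58, -0.62 and -0.69 and did not pass. Both printed genes, at 71 and 68 bases, are shorter than a sequencing read, and no strand option was used in the abundance step, so their values can include longer precursor RNA of either strand. Messenger RNA selection also takes up transfer and ribosomal RNA unevenly, and its part in these values was not tested.

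**Figure D2:**
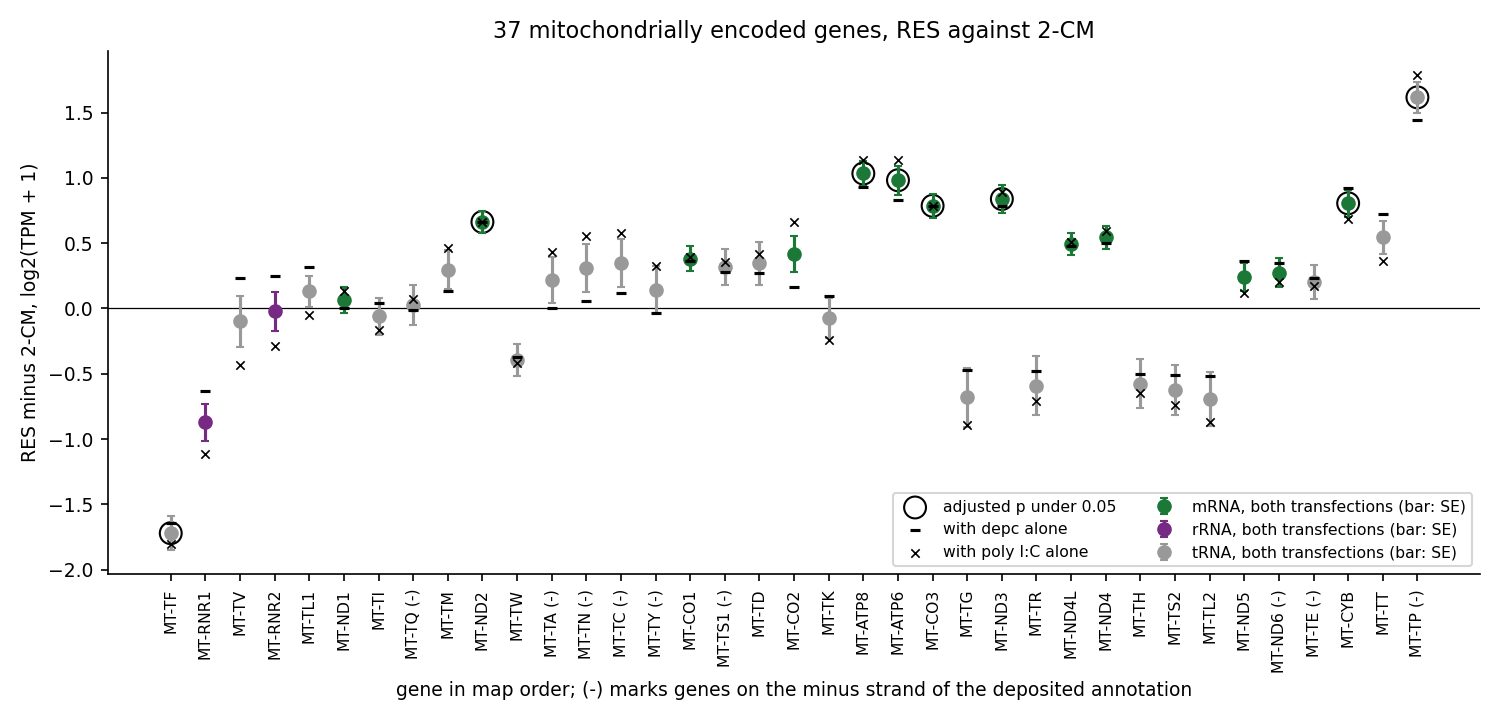
RES minus 2-CM on the log2(TPM + 1) scale (y axis) for the 37 mitochondrially encoded genes in map order (x axis). Filled points with bars give the difference across both transfections with its standard error, dashes and crosses the values with depc and with poly I:C, and rings mark the 8 genes with an adjusted p under 0.05; MT-TF lies lowest at -1.72 and MT-TP highest at 1.62.

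Nuclear genes of 3 mitochondrial lists had no call in the main test or with voom. The unadjusted counts below stand against 2099 of all 16940 genes with a limma unadjusted p under 0.05. Of 26 tested genes for mitochondrial transcription and RNA handling, 0 were called by limma or in estimated reads with voom, 3 had an unadjusted p under 0.05, all lower, and the median difference was -0.34. The transfections differed in sign, with medians of 0.44 with depc and -0.89 with poly I:C, as did those of all genes, at 0.34 and -0.35. Median GC content was 42.8% in this list and 48.4% over all genes, and its part in these values was not tested. The pooled median was -0.18 with mitochondrial genes left out of the TPM sum, where all genes had 0.13. POLRMT itself was at 26.1 and 41.1 TPM with depc and 20.0 and 13.7 with poly I:C under RES and 44.3 and 58.6 TPM with depc and 18.9 and 20.8 with poly I:C under 2-CM. Its libraries overlap in the poly I:C transfection, and its difference of -0.43 did not pass (adjusted p 0.524). Among 78 mitochondrial ribosomal protein genes 0 were called by either method, 8 had an unadjusted p under 0.05, all lower, and the median was -0.27, which becomes -0.09 with mitochondrial genes left out. Among 40 nuclear-encoded respiratory chain genes 0 were called by either method, 1 was under an unadjusted p of 0.05, and the median was -0.12, which becomes 0.07 with mitochondrial genes left out of the TPM sum. With GC correction the transcription, ribosomal and respiratory chain lists had 1, 1 and 0 genes called lower, where 124 of all 16940 were. Without both RES replicate 1 libraries their medians were -0.35, -0.27 and -0.19, against -0.08 for all genes. COQ10A, a coenzyme Q binding protein, was called and stood at 99.4 to 119.8 TPM under RES and 42.5 to 53.7 under 2-CM, a difference of 1.14 (SE 0.14, limma adjusted p 0.0224). PISD, which makes phosphatidylethanolamine in mitochondria, was called lower at 32.9 to 49.7 TPM against 74.3 to 91.1. Both genes were picked here after their values were seen.

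PLK1 and CDC20 were called lower under RES among the genes of mitosis. The list held 25 genes, all of them measured. All 25 had negative differences, 2 were called lower against 0.213% of all genes, 11 were under an unadjusted p of 0.05, and the median was -0.63 against -0.03 for all genes. The median was -0.16 with depc, where all genes had 0.34, and -1.42 with poly I:C, where all genes had -0.35. Median GC content was 43.3% in the list and 48.4% over all genes. Across all genes the difference correlated with GC content at -0.49 with depc and 0.55 with poly I:C. The part of GC content in the list values was not tested. With depc 12 of the list were higher and 13 lower, while 12483 of all 16940 genes were higher. With poly I:C all 25 were lower, as were 12597 of all genes. In estimated reads with voom 3 were called lower and with GC correction 4, where 49 and 124 of all 16940 genes were. Without both RES replicate 1 libraries the median was -0.73, against -0.08 for all genes. CDC20 lost its call with median-of-ratios and with upper-quartile scaling, and PLK1 kept it under both. PLK1 is the polo-like kinase that drives mitotic entry and spindle assembly, and CDC20 activates the complex that ends mitosis. Their promoters are shown because mitotic genes are known to share a short element, the cell cycle genes homology region, here searched as TTTGAA on both strands and set in capitals. Each stretch runs from 250 bases before to 50 after the annotated start, from RefSeq on GRCh38.p14, and the RefSeq start of PLK1 lies inside the gene span of the deposited annotation.
PLK1 promoter (chr16:23678639-23678938, plus strand): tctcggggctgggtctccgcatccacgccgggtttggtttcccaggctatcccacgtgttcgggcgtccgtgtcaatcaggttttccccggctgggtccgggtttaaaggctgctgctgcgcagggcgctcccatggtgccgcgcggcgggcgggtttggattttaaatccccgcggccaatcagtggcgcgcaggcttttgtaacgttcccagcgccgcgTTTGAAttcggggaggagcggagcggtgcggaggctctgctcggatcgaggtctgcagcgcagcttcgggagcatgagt
CDC20 promoter (chr1:43358731-43359030, plus strand): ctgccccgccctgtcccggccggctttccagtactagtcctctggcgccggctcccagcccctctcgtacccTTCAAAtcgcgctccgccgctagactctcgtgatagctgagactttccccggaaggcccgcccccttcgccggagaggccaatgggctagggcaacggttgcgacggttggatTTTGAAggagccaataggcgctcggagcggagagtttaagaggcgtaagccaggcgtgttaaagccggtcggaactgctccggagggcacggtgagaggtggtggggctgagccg
The letters occur in 14 of the 20 list genes with a promoter in the table (70%), counting any promoter of a gene, and in 18.2% of the 27305 genes in the table counted the same way, a description of sequence and not of binding.

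PLK1 (ENSG00000166851.15, chr16:23677656-23690367, plus strand) was at 25.8 and 30.0 TPM with depc and 25.1 and 16.6 with poly I:C under RES. Under 2-CM it was at 139.7 and 139 TPM with depc and 87.4 and 90.2 with poly I:C, so each 2-CM library lay above every RES library. DMSO held 117, 115, 66.6 and 79.9 TPM, on the 2-CM side. The difference was -2.18 (SE 0.17, limma adjusted p 0.00501). CDC20 (ENSG00000117399.14, chr1:43358981-43363203, plus strand) was at 129.9 and 155 TPM with depc and 135 and 92.8 with poly I:C under RES and 477 and 494 TPM with depc and 274 and 282 with poly I:C under 2-CM. Its DMSO libraries, at 426, 459.9, 276 and 368 TPM, again lay with 2-CM, and it differed by -1.54 (SE 0.17, limma adjusted p 0.0152). UBE2C, a ubiquitin-conjugating enzyme of the same complex, had 167 to 267 TPM under RES and 327 to 400.0 under 2-CM and did not pass, at -0.89 (adjusted p 0.0508). KIF20A, a kinesin of cytokinesis, did not pass either, at -1.68 (adjusted p 0.0569). Outside the list, PSRC1, a spindle protein picked after its values were seen, was called at -0.96 (adjusted p 0.0377). PIF1, a DNA helicase (ENSG00000140451.13, chr15:64815632-64825668, minus strand), had 4.07 to 5.37 TPM under RES and 11.8 to 20.0 under 2-CM, with DMSO at 11.5 to 13.2, a difference of -1.56 (SE 0.22, limma adjusted p 0.0377). Of 33 DNA replication genes, 0 were called by limma or with voom, 2 had an unadjusted p under 0.05, both higher, and the median was 0.20. That median was 0.58 with depc and -0.19 with poly I:C, where all genes had 0.34 and -0.35. Across both transfections it was -0.0099 without both RES replicate 1 libraries.

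Of the 36 genes called lower, 6 were histone genes of the chromosome 6 cluster, a grouping made after the values were seen. Of the 40 canonical histone genes tested, 6 were called lower, against 0.213% of all genes. HIST1H2BK, an H2B gene (ENSG00000197903.7, chr6:27146418-27146798, minus strand), was at 13.8 and 16.8 TPM with depc and 13.4 and 14.2 with poly I:C under RES. Under 2-CM it held 55.5 and 57.2 TPM with depc and 53.6 and 54.3 with poly I:C, and DMSO held 64.6, 59.4, 39.7 and 47.7 TPM. The replicates were close and the groups far apart, with a difference of -1.86 (SE 0.15, limma adjusted p 0.00501). HIST1H2BJ (ENSG00000124635.8, chr6:27125897-27132750, minus strand) differed by -1.91 (SE 0.20, limma adjusted p 0.0135), and HIST1H3H, an H3 gene (ENSG00000278828.1, chr6:27810064-27811300, plus strand), by -1.80 (SE 0.20, limma adjusted p 0.0152). The linker histone HIST1H1C was at 18.5 to 26.9 TPM under RES and 58.1 to 67.8 under 2-CM, a difference of -1.40 (SE 0.16, limma adjusted p 0.0164). HIST1H4J (ENSG00000197238.4, chr6:27824108-27824480, plus strand) and HIST1H4K (ENSG00000273542.1, chr6:27831216-27831527, minus strand) had 1.14 to 2.95 and 1.55 to 3.31 TPM under RES against 5.75 to 14.1 and 6.58 to 14.8 under 2-CM, with differences of -1.64 and -1.58 (both adjusted p 0.0383). Histone gene copies are alike in sequence, so reads may be split among them, and most histone messengers lack the poly(A) tail that this kind of library selects.

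Genes of the stress response that ATF4 drives were mixed, with DDIT3 called higher under RES. The list held 22 genes, all measured: 2 were called higher and 0 lower, 17 had positive differences, 6 had an unadjusted p under 0.05 and a positive sign and 3 a negative one, and the median was 0.23. All genes called higher made up 0.283%, and with a minimum of 5 TPM 1 of the 20 list genes measured was called higher. Without both RES replicate 1 libraries the list had 3 genes called higher and 4 lower, and with GC correction 3 and 1, so its calls were then not on 1 side alone. DDIT3, the transcription factor CHOP of the endoplasmic reticulum stress response (ENSG00000175197.12, chr12:57516588-57521737, minus strand), was at 152 and 112 TPM with depc and 155 and 155 with poly I:C under RES. Under 2-CM it held 30.2 and 22.8 TPM with depc and 54.3 and 55.2 with poly I:C, and DMSO held 29.0, 26.0, 52.2 and 34.3 TPM, on the 2-CM side. The difference was 1.88 (SE 0.21, limma adjusted p 0.0152). More than 10% of its exonic bases overlap MARS, so part of its reads may belong there. NUPR1, a stress-induced chromatin protein, had 1.36 to 3.81 TPM under RES and 0.205 to 0.251 under 2-CM, a difference of 1.51 (SE 0.23, limma adjusted p 0.0427). NUPR1 passed the filter on low values through the RES libraries alone. CHAC1, which degrades glutathione, reached 18.2 to 42.2 TPM under RES against 6.04 to 17.8 and did not pass, at 1.35 (adjusted p 0.081). SLC7A5, a carrier of large neutral amino acids, went the other way without passing, at -0.97 (adjusted p 0.0508). ATF4 messenger itself did not pass, at -0.49 (adjusted p 0.112). ASNSP1, a pseudogene of the asparagine synthetase gene ASNS picked after its values were seen, was called at 2.06 (SE 0.23, limma adjusted p 0.0152), and since the copies are alike its reads may come from ASNS. ASNS had 24.1 to 83.1 TPM under RES and 7.68 to 31.7 under 2-CM, which overlap, and did not pass, at 1.40 (adjusted p 0.192). The element TGATGNAA, which C/EBP and ATF factors share, occurs in 4 of the 18 list genes with a promoter in the table (22.2%) and in 4.46% of all genes there; it was not found in the window of DDIT3.

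Endoplasmic reticulum chaperones and p53 targets had positive medians and no call in the main test or with voom. All 16 chaperone genes had positive differences, 0 were called by limma or with voom, and 3 reached an unadjusted p under 0.05. Their median was 0.24, with 0.78 under depc and -0.14 under poly I:C, where all genes had 0.34 and -0.35. Of 23 tested p53 targets, 14 had positive differences, 0 were called by either method, and 5 had an unadjusted p under 0.05, all higher. The p53 median was 0.23, with 0.62 under depc and -0.10 under poly I:C, beside the same values for all genes. BTG2, an antiproliferative p53 target, had 14.5 to 20.2 TPM under RES and 4.83 to 10.3 under 2-CM and did not pass, at 1.03 (adjusted p 0.0768). CDKN1A, the cell cycle inhibitor p21, overlapped between compounds at 83.9 to 166 and 71.7 to 122 TPM. Without both RES replicate 1 libraries, 3 p53 targets and 0 chaperones were called higher and 0 of either lower. The 17 tested antioxidant genes under NRF2 had 0 calls by either method, 2 with an unadjusted p under 0.05, and a median of -0.07, which turns to 0.10 with mitochondrial genes left out of the TPM sum. Among them 1 was called higher and 2 lower without both RES replicate 1 libraries.

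Among genes of the aryl hydrocarbon receptor, CYP1A1 was called lower under RES. It is the receptor's classic target and oxidises aromatic compounds. Its promoter, from RefSeq on GRCh38.p14, is shown with the core of the xenobiotic response element, searched as GCGTG on both strands, in capitals.
CYP1A1 promoter (chr15:74725479-74725778, minus strand): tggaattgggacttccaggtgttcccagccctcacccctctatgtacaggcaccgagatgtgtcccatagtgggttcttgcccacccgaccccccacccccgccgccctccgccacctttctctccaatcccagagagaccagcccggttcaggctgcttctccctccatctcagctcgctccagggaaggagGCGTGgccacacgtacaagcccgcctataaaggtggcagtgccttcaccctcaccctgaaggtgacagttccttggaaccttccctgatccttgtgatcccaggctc
This core occurs in 6 of the 8 list genes with a promoter in the table (75%) and in 40.6% of all genes there, counted by gene. CYP1A1 (ENSG00000140465.14, chr15:74719542-74725536, minus strand) was at 1.06 and 2.14 TPM with depc and 0.997 and 0.680 with poly I:C under RES. Under 2-CM it held 7.26 and 6.63 TPM with depc and 4.16 and 3.56 with poly I:C, and DMSO held 3.54, 4.45, 1.83 and 1.12 TPM, between the compounds in both transfections. The difference was -1.52 (SE 0.21, limma adjusted p 0.0377). CYP1B1, a related oxidase that shares exonic bases with an antisense gene, was at 10.2 and 3.35 TPM with depc and 4.94 and 13.6 with poly I:C under RES and 20.3 and 14.4 TPM with depc and 102 and 83.2 with poly I:C under 2-CM. Its groups did not overlap, but the spread was wide and the difference of -2.35 did not pass (adjusted p 0.0966). AHRR, the receptor's repressor, had 5.01 to 5.08 TPM under RES and 8.96 to 12.8 under 2-CM in the gene record with the smaller p of 2, and did not pass, at -0.98 (adjusted p 0.0778). Of the 8 gene records tested, 6 had negative differences and 1 was called lower, against 0.213% of all genes. Of these records 3 reached an unadjusted p under 0.05, and the median was -0.69. It was -0.04 with depc and -1.22 with poly I:C, where all genes had 0.34 and -0.35. Median GC content was 45.2% in the list and 48.4% over all genes, and its part in these values was not tested. In the fit without both RES replicate 1 libraries the median was -0.81, against -0.08 for all genes. The receptor AHR itself differed by 0.18 (adjusted p 0.994). SULT1A2 and SULT1A1, phenol sulfotransferases with near-identical sequences, were called higher. SULT1A2 (ENSG00000197165.11, chr16:28591943-28597050, minus strand) had 16.7, 15.5, 12.3 and 10.1 TPM in the RES libraries against 3.55, 4.52, 1.64 and 2.76 in the 2-CM libraries, a difference of 1.86 (SE 0.21, limma adjusted p 0.0154). SULT1A1, picked after its values were seen, differed by 1.00 (adjusted p 0.046), and the copies could trade reads.

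The cytoplasmic actins and fibronectin were called lower under RES. ACTB and ACTG1, actin genes alike in sequence, picked with CNN2 and MMP2 after their values were seen, had 1913 to 2741 and 1025 to 1367 TPM under RES against 3732 to 6570.0 and 1871 to 2818 under 2-CM, with differences of -1.04 (adjusted p 0.0388) and -0.85 (adjusted p 0.0383). CNN2, an actin-binding calponin, differed by -1.17 (adjusted p 0.0152). MMP2, a gelatinase, differed by -1.09 (adjusted p 0.0468). FN1, the fibronectin of the extracellular matrix (ENSG00000115414.19, chr2:215360440-215436073, minus strand), was at 119 and 87.9 TPM with depc and 39.7 and 54.2 with poly I:C under RES and 266 and 213 TPM with depc and 139.6 and 135 with poly I:C under 2-CM. DMSO held 259.6, 214, 42.1 and 32.5 TPM, within the 2-CM range with depc and around the lower RES value with poly I:C, and the difference was -1.38 (SE 0.18, limma adjusted p 0.028). Of the 23 tested matrix and adhesion genes, 1 was called lower against 0.213% of all genes and 0 higher against 0.283%. Estimated reads with voom gave 2 lower and 1 higher, the fit without both RES replicate 1 libraries gave 3 lower and 1 higher, and the median was 0.08. COL1A1, a chain of type I collagen, did not pass, at -0.80 (adjusted p 0.0569). Of 6 fibroblast markers, COL1A1, COL3A1, DCN and LUM reached the filter while COL1A2 and PDGFRA stayed below 0.1 TPM, and their summed level was 45.1 to 88.5 TPM under RES against 138 to 152 under 2-CM. Their part in the actin and matrix values was not tested. In bulk RNA, fewer cells of a type and less RNA per cell cannot be told apart. In the main test the 4 tested keratins all had negative differences, 0 were called by limma or with voom, and 2 were under an unadjusted p of 0.05. Their median was -0.33, and -0.40 without both RES replicate 1 libraries, against -0.03 and -0.08 for all genes. With GC correction 1 keratin was called lower, where 124 of all 16940 genes were.

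The remaining genes are named for the size of their difference. DHRS2, a short-chain dehydrogenase (ENSG00000100867.14, chr14:23630115-23645639, plus strand), was the most abundant of them. It was at 790.0 and 803 TPM with depc and 799.6 and 571 with poly I:C under RES and 2666 and 2454 TPM with depc and 2455 and 2572 with poly I:C under 2-CM. DMSO held 3189.6, 3008, 2616 and 2965 TPM, above every RES library, and the difference was -1.79 (SE 0.13, limma adjusted p 0.00501). C11orf53 (ENSG00000150750.8, chr11:111245726-111286401, plus strand) was low under RES at 3.07, 3.86, 4.20 and 3.64 TPM against 15.8, 20.5, 18.7 and 20.2 under 2-CM, with DMSO at 15.3 to 21.1, and differed by -2.08 (SE 0.19, limma adjusted p 0.01). SLC12A3, a sodium chloride cotransporter (ENSG00000070915.9, chr16:56865207-56915850, plus strand), differed by -1.80 (SE 0.19, limma adjusted p 0.0135), from 5.38 to 8.39 TPM under 2-CM to 0.660 to 1.81 under RES.

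FHIT, a hydrolase of diadenosine triphosphate (ENSG00000189283.10, chr3:59747277-61251459, minus strand), was called higher. It was at 5.30 and 5.59 TPM with depc and 5.05 and 4.68 with poly I:C under RES and 0.583 and 1.08 TPM with depc and 0.545 and 0.529 with poly I:C under 2-CM. The DMSO libraries, at 5.24, 5.70, 5.11 and 4.32 TPM, lay with RES in both transfections, so the 2-CM libraries were the low ones. The difference was 1.88 (SE 0.18, limma adjusted p 0.011). Among the 2-CM libraries only depc replicate 2, at 1.08 TPM, reached 1 TPM, so FHIT passed the filter on low values through the RES libraries. BEX2, a brain-expressed X-linked protein (ENSG00000133134.11, chrX:103309346-103311046, minus strand), had 10.7, 9.83, 9.41 and 11.9 TPM in the RES libraries and 2.22, 0.669, 2.43 and 2.34 in the 2-CM libraries. DMSO was at 1.14 to 2.74, so here RES was the high group, and the difference was 2.03 (SE 0.27, limma adjusted p 0.0302). TNFRSF9, a costimulatory receptor of the tumour necrosis factor receptor family (ENSG00000049249.8, chr1:7915894-7943165, minus strand), had 21.5, 10.9, 15.1 and 23.3 TPM under RES, 2.91, 2.09, 6.01 and 5.18 under 2-CM and 1.61 to 4.41 under DMSO, and differed by 1.91 (SE 0.29, limma adjusted p 0.0409). INA, the neurofilament protein alpha-internexin (ENSG00000148798.11, chr10:103277138-103290346, plus strand), had 4.32 to 5.92 TPM under RES, 0.564 to 1.38 under 2-CM and 0.580 to 0.785 under DMSO, a difference of 1.70 (SE 0.20, limma adjusted p 0.0186).

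On the log2(TPM + 1) scale, G0S2, ALDOC, TFF2, MT3 and RCN3 had DMSO means nearer to 2-CM with depc and nearer to RES with poly I:C. For G0S2 with poly I:C DMSO was close to midway, at 2.12 against 3.07 for RES and 1.14 for 2-CM. G0S2, an inhibitor of fat breakdown (ENSG00000123689.6, chr1:209675412-209676390, plus strand), was at 4.87 and 5.30 TPM with depc and 7.70 and 7.09 with poly I:C under RES and 0.705 and 0.736 TPM with depc and 1.21 and 1.20 with poly I:C under 2-CM. DMSO held 0.635, 0.819, 3.12 and 3.62 TPM, and the difference between the compounds was 1.87 (SE 0.17, limma adjusted p 0.01). ALDOC, the brain form of the glycolytic enzyme aldolase (ENSG00000109107.14, chr17:28573115-28576948, minus strand), had 65.3, 96.2, 62.6 and 48.9 TPM under RES, 21.8, 23.4, 14.3 and 14.5 under 2-CM and 15.2, 17.4, 32.3 and 39.3 under DMSO, a difference of 1.82 (SE 0.18, limma adjusted p 0.011). TFF2, a mucosal trefoil peptide (ENSG00000160181.9, chr21:42346357-42350997, minus strand), had 11.8, 13.7, 15.6 and 14.2 TPM under RES against 3.05, 3.49, 3.11 and 3.70 under 2-CM, with DMSO at 2.58, 2.77, 8.29 and 8.31. All 4 RES libraries were above all others for TFF2, and the difference was 1.77 (SE 0.19, limma adjusted p 0.0152). MT3, a metallothionein (ENSG00000087250.8, chr16:56589074-56591088, plus strand), and RCN3, a calcium-binding protein of the secretory path (ENSG00000142552.8, chr19:49528003-49546962, plus strand), differed by 1.75 (adjusted p 0.0468) and 1.60 (adjusted p 0.0372). RGL3, an exchange factor for Ral GTPases (ENSG00000205517.12, chr19:11384341-11419342, minus strand), had 4.25 to 8.63 TPM under RES and 0.969 to 1.90 under 2-CM, a difference of 1.65 (SE 0.26, limma adjusted p 0.0477). ENO2, the neuronal enolase, was called too, at 0.98 (limma adjusted p 0.0377). The list of 21 glycolysis and hypoxia genes had 0 calls by limma or with voom and 3 genes with an unadjusted p under 0.05. Its median was -0.23, which becomes -0.05 with mitochondrial genes left out of the TPM sum. That list had 1 gene called higher and 1 lower without both RES replicate 1 libraries. ENO2 was picked after its values were seen.

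Further called genes are given here on the lower side, all picked after their values were seen. CRABP2, which carries retinoic acid to its receptor, was at 136 and 160.5 TPM with depc and 149.5 and 113 with poly I:C under RES and 407 and 465 TPM with depc and 299.9 and 298 with poly I:C under 2-CM. DMSO held 297, 301, 158 and 184 TPM, and the difference was -1.37 (SE 0.15, limma adjusted p 0.0152). CEBPD, a stress-responsive transcription factor, was at 21.8 and 23.1 TPM with depc and 62.4 and 45.1 with poly I:C under RES and 52.9 and 63.7 TPM with depc and 140.0 and 166 with poly I:C under 2-CM, with no overlap within a transfection, and differed by -1.42 (SE 0.17, limma adjusted p 0.0167). DMSO held 30.9, 26.9, 94.0 and 110.3 TPM for CEBPD, on the log2 scale nearer to RES with depc and nearer to 2-CM with poly I:C. HSD11B2, which inactivates cortisol, had 0.727 to 1.65 TPM under RES and 3.62 to 6.18 under 2-CM (adjusted p 0.0383). TGM2, a protein-crosslinking transglutaminase, had 30.1 to 54.1 TPM under RES, 58.7 to 100.6 under 2-CM and 24.4 to 71.3 under DMSO. It differed by -0.94 (limma adjusted p 0.0427). Its DMSO means on the log2 scale lay nearer to RES in both transfections. With depc this was a near tie, at 6.13 against 5.63 for RES and 6.64 for 2-CM. NNMT, which methylates nicotinamide, differed by -0.93 (adjusted p 0.0388). NME1-NME2, a read-through gene that shares exons with both of its parents and is uncertain, differed by -1.27 (adjusted p 0.011).

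On the higher side the further genes were likewise picked after their values were seen. PTPN6, the phosphatase SHP1, was at 11.4 and 14.5 TPM with depc and 10.7 and 8.63 with poly I:C under RES and 3.38 and 5.13 TPM with depc and 3.29 and 2.69 with poly I:C under 2-CM. DMSO held 3.17, 3.37, 4.60 and 5.73 TPM, on the 2-CM side, and the difference was 1.42 (SE 0.21, limma adjusted p 0.0396). CALCOCO1, a receptor for autophagy of the endoplasmic reticulum, had 40.9 to 72.4 TPM under RES and 20.0 to 29.5 under 2-CM, a difference of 1.27 (adjusted p 0.0396). ING4, a reader of histone methylation, had 79.0 to 84.1 TPM against 33.5 to 45.8, a difference of 1.01 (adjusted p 0.0359). CD74, the invariant chain of class II antigen presentation, had 30.5 to 35.2 TPM against 13.1 to 18.0, a difference of 1.05 (adjusted p 0.046). The groups of these 3 genes did not overlap within a transfection. RRAD, a small GTPase, differed by 1.56 (adjusted p 0.0468), and CNTFR, a cytokine receptor subunit, by 1.54 (adjusted p 0.0377). MTATP6P1 and MTND2P28, nuclear copies of mitochondrial genes on chromosome 1, differed by 1.03 (adjusted p 0.0152) and 0.66 (adjusted p 0.0384). MT-ATP6 and MT-ND2 had 0.98 and 0.66, and since the copies are near-identical their reads may be mitochondrial.

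**Figure D3:**
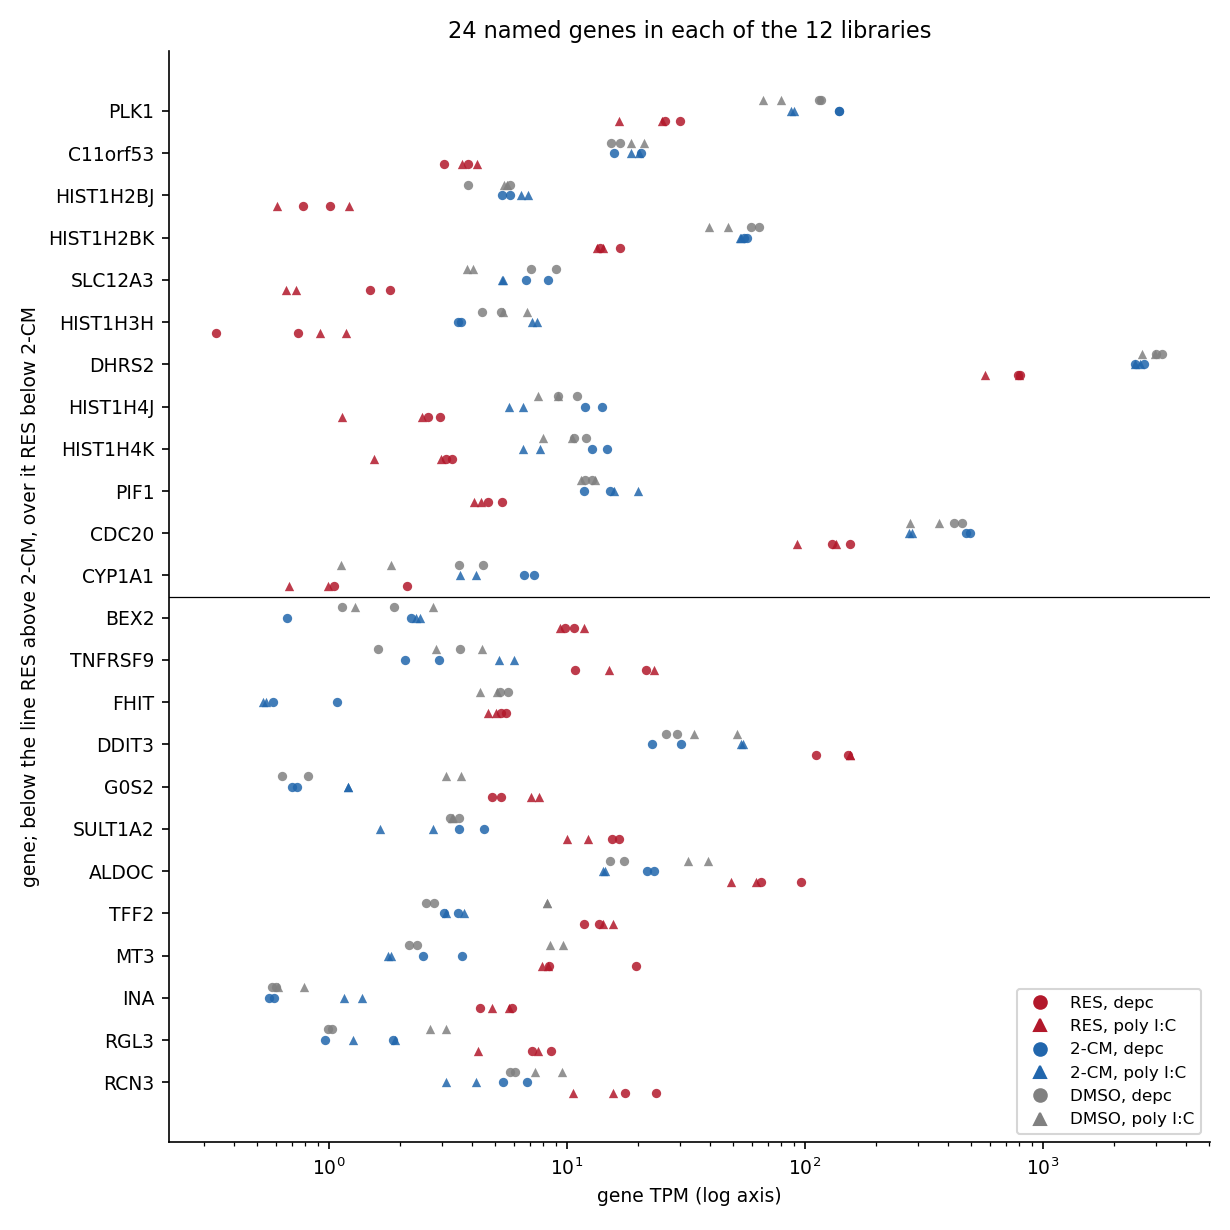
Gene TPM in every library (x axis, log scale) of the 24 protein-coding genes named for the size of their difference (y axis), 12 in each direction. Red marks RES, blue 2-CM and grey DMSO, circles depc and triangles poly I:C; in each gene the RES points lie apart from the 2-CM points of the same transfection, and FHIT is the gene whose grey points lie with RES in both transfections.

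Of 3 lists of innate immune genes, 1 member was called, ICAM1. The 30 interferon-induced genes had 0 calls by limma or with voom, 1 with an unadjusted p under 0.05, and a median of -0.15, which turns to 0.02 with mitochondrial genes left out of the TPM sum. Their median was 0.42 with depc, against 0.34 for all genes, and -0.89 with poly I:C, against -0.35. IFI44L, one of the interferon-induced genes, stood, with poly I:C, at 6.61 and 21.0 TPM under RES, 79.1 and 69.2 under 2-CM and 27.9 and 9.41 under DMSO, and its difference there was -2.53 (adjusted p 0.144). MX1, an antiviral GTPase, stood, with poly I:C, at 146 and 218 TPM under RES, 419 and 446 under 2-CM and 271 and 259 under DMSO, with a difference of -1.28 (adjusted p 0.163). The compounds did not overlap in either gene, and neither passed. With poly I:C, 12597 of all 16940 genes were lower under RES. RES lay below 2-CM there with no overlap in 1069 genes that did the same with depc. It also did so in 2365 genes where RES lay above 2-CM with depc. Genes whose compounds overlapped with depc are not in these counts, so they are a lower bound. The GC correlation of the difference with poly I:C was 0.55 across all genes, and its part in these values was not tested. The list of 12 double-stranded RNA sensors with partner proteins had 0 calls by either method and 0 with an unadjusted p under 0.05. Its median was -0.21, which becomes -0.04 with mitochondrial genes left out. Without both RES replicate 1 libraries 1 interferon-induced gene was called lower and 0 of the sensors either way. Of 15 tested NF-kB targets 1 was called higher, against 0.283% of all genes, and without both RES replicate 1 libraries 2 were called in each direction. The called gene was ICAM1, an adhesion molecule for leukocytes, at 96.7 and 112 TPM with depc and 80.0 and 69.9 with poly I:C under RES and 59.3 and 53.6 TPM with depc and 41.1 and 42.0 with poly I:C under 2-CM. DMSO held 33.9, 35.8, 20.3 and 23.6 TPM, below both compounds, and the difference was 0.85 (SE 0.14, limma adjusted p 0.0468). The ICAM1 call was lost in 16 of 24 alternatives, among them FPKM, GC correction and estimated reads with voom.

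Lists of sirtuin, adenosine and oestrogen receptor genes had no call in the main test or with voom. Among 16 genes of sirtuins and NAD supply, 0 were called by limma or with voom, 2 were under an unadjusted p of 0.05 and the median was 0.03. SIRT1, the deacetylase most often linked with resveratrol, had 2.68 to 12.6 TPM under RES and 2.14 to 15.9 under 2-CM, which overlap fully, and differed by -0.02 (SE 0.47). SIRT2 had 27.9 to 58.1 TPM under RES against 21.4 to 25.9 and did not pass, at 0.97 (adjusted p 0.119). Among 15 tested genes of adenosine handling, 0 were called by either method, 2 were under an unadjusted p of 0.05 and the median was -0.14, which turns to 0.01 with mitochondrial genes left out. MAT2A, which makes S-adenosylmethionine and shares exonic bases with GGCX, did not pass at -0.65 (adjusted p 0.375). Of 5 tested oestrogen receptor targets 0 were called by either method and 2 had an unadjusted p under 0.05. GREB1, one of them, did not pass at -1.07 (adjusted p 0.0577). Without both RES replicate 1 libraries, the calls were 2 higher and 2 lower among sirtuin and NAD genes, 1 and 1 among adenosine genes, and 0 and 1 among oestrogen targets, which also had 1 called lower with GC correction. Immediate early genes (16), cholesterol genes (23) and cytosolic ribosomal protein genes (84) had 0 calls by either method, where 4, 1 and 6 reached an unadjusted p under 0.05, and medians of 0.06, 0.03 and -0.22, the last of which becomes -0.03 with mitochondrial genes left out. With both RES replicate 1 libraries left out they had 0, 0 and 1 genes called higher and 2, 0 and 6 lower.

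**Figure D4:**
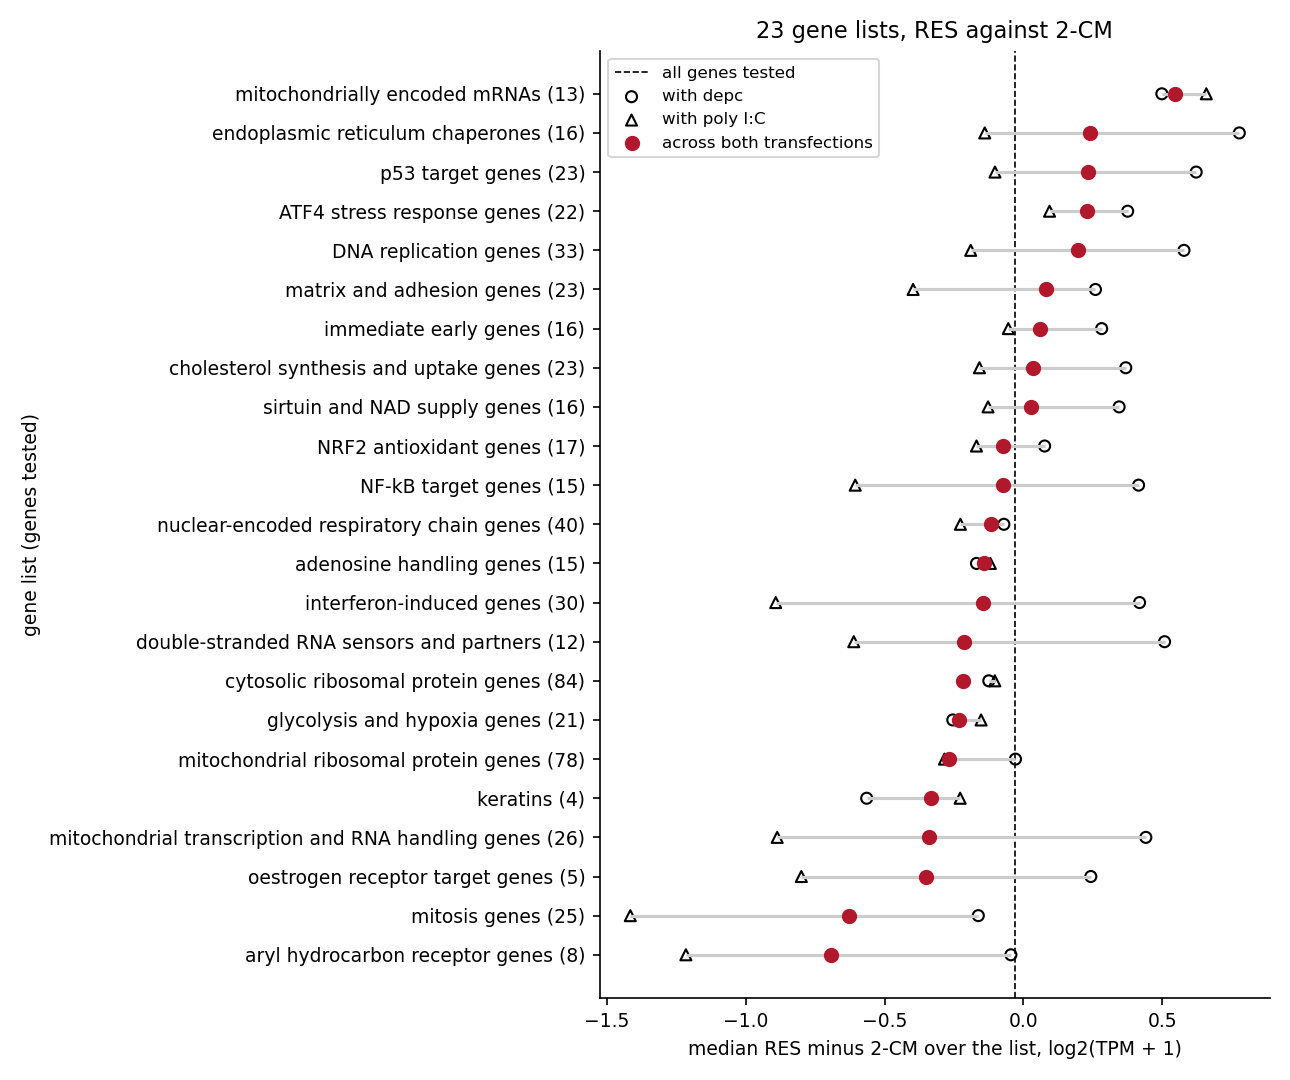
Median RES minus 2-CM on the log2(TPM + 1) scale (x axis) for 23 gene lists with the number of genes tested (y axis). Filled points give the difference across both transfections, open circles depc and open triangles poly I:C, and the dashed line is the median of all genes at -0.03; mitochondrially encoded mRNAs stand highest at 0.55, and mitosis and aryl hydrocarbon receptor genes lowest at -0.63 and -0.69.

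Within a single transfection few genes passed, and the calls other than MT-TP belong to genes that passed the filter on low values through the 1 group where they were high. With depc 1 of the 16940 was called (0.0059%), 2543 reached an unadjusted p under 0.05, with an all-gene median of 0.34. The gene, AL451136.1, was at 4.99 and 4.39 TPM in RES depc and listed at 0 in all 4 2-CM libraries. It is uncertain, since 66.4% of its exonic bases overlap another gene on the same strand. In RES poly I:C it was at or near 0, and in DMSO depc it was at 1.34 and 2.43. With poly I:C 4 genes were called (0.0236%), 2680 reached an unadjusted p under 0.05, with an all-gene median of -0.35. MT-TP was the one higher under RES, at 1.79 (adjusted p 0.026). MT1A, a metallothionein, reached 4.97 and 6.06 TPM in the 2-CM poly I:C pair and was listed at 0 in the other 6 libraries compared, and in DMSO poly I:C it was at 4.42 and listed at 0. AL035461.3, whose exons overlap CRLS1, reached 5.56 and 5.89 TPM in the same 2-CM pair and was listed at 0 in the other 10 libraries. The fourth, the small nucleolar RNA gene AC009065.9, whose bases all overlap SNORD60 on the same strand and which is uncertain too, reached 6.52 and 6.92 TPM in that pair and lay at 0.111 to 0.558 in the other 6 libraries compared. The depc call was lost without any one of the 8 libraries. With poly I:C the count was 0 without either 2-CM poly I:C replicate, 1 without either RES poly I:C replicate, 28 without RES depc replicate 1 and 34 without RES depc replicate 2. Estimated reads with voom called 1 gene with depc and 2 with poly I:C.

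The test of whether the compound difference changed between transfections called 0 genes (0% of 16940) by limma and 2 in estimated reads with voom, with 2821 at an unadjusted p under 0.05. Without RES depc replicate 2 alone it called 5774, the largest effect of a single library on any count, and 1 and 2 without 2-CM depc replicate 2 and RES poly I:C replicate 2. Its value correlated with GC content across genes at 0.72, against -0.49 for the difference with depc and 0.55 with poly I:C, and the part of GC content in it was not tested. The RES libraries lay above 2-CM with depc and below it with poly I:C for 2365 genes, and the reverse held for 94. Of genes with a mean of at least 5 TPM in a group, MT1A and AL035461.3, described above, had the smallest unadjusted p among negative values, and EIF3K, a subunit of an initiation factor, and TMEM256, which overlaps a read-through gene, among positive ones. EIF3K was at 93.2 and 104 TPM with depc and 161 and 154 with poly I:C under RES and 226 and 183 TPM with depc and 81.0 and 149.8 with poly I:C under 2-CM, and the change between transfections of 1.55 did not pass (unadjusted limma p 0.00757, adjusted p 0.273).

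**Figure D5:**
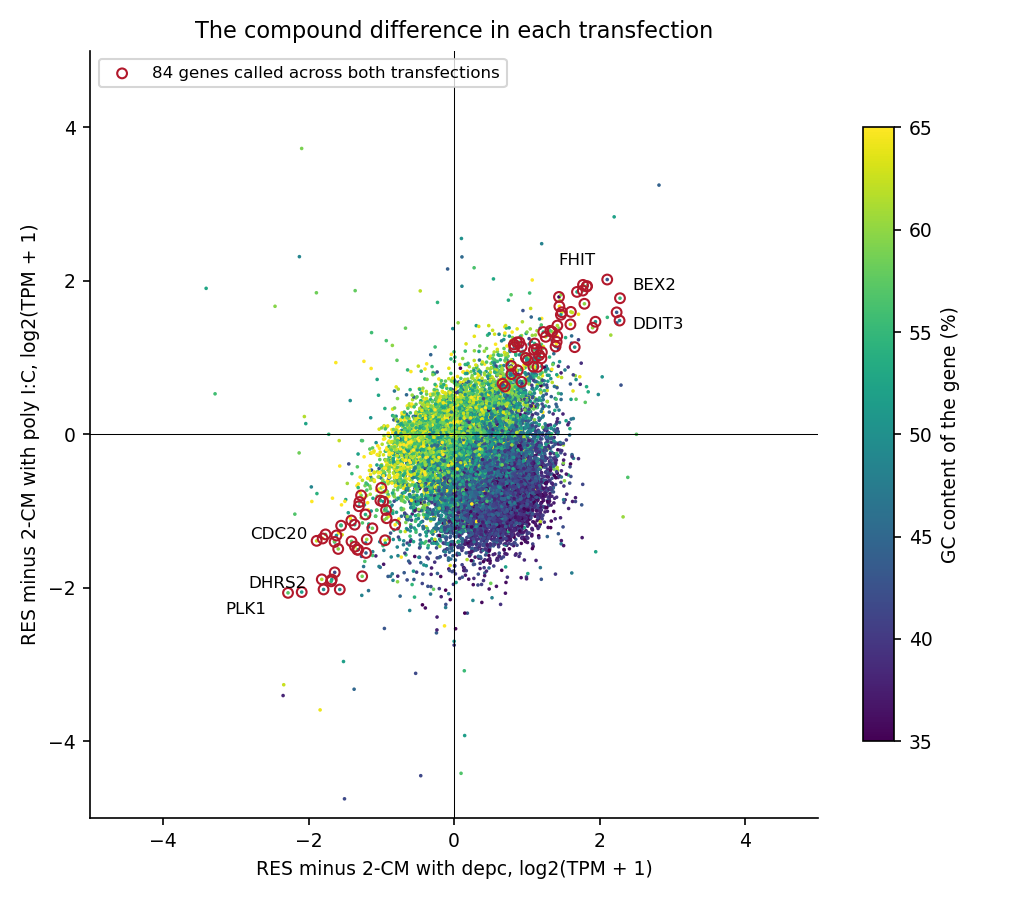
RES minus 2-CM with depc (x axis) and with poly I:C (y axis) on the log2(TPM + 1) scale for the genes tested, coloured by GC content in percent; axes run from -5 to 5 and 1 gene lies outside. Rings mark the 84 called genes, which have the same sign on both axes, while genes of low GC content fill the lower right, where RES was higher with depc and lower with poly I:C.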

How the data were processed

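RNA of 12 libraries was sequenced in paired reads from a stranded messenger RNA kit, and 8 libraries are compared here. Per the submitters' processing notes, reads were demultiplexed with bcl2fastq 2.20 and aligned to hg38 with HISAT2 2.1.0, and DESeq2 was also used. Per the file headers, StringTie 2.0.4 estimated abundance for the GENCODE 32 transcripts alone, with no strand option, so a gene and its antisense partner cannot be told apart. The deposited files give per transcript a TPM value, an FPKM value and a read coverage, and hold no counts. TPM shares 1 total among all genes, so a change in abundant transcripts moves the rest.

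Gene TPM was the sum over a gene's transcripts. Genes with at least 1 TPM in at least 2 of the 8 libraries were tested with limma 3.58.1 (R 4.3.3, Python 3.11.15; empirical Bayes with trend) on log2(TPM + 1), which understates changes of low genes. The test across both transfections had compound and transfection as terms. Those within a transfection and of the interaction used 4 group means and 1 shared spread. Benjamini-Hochberg adjustment ran over all genes tested, and a gene was called at an adjusted p under 0.05. Exact permutation, 36 assignments, was used for the mitochondrial share. Reads were estimated from coverage times length over read length for a voom alternative, which is not a count test, and the 8 libraries held 3.72 to 6.00 gigabases. Named genes were the 12 called protein-coding genes per direction with the largest difference, a mean of at least 5 TPM in the higher compound and no overlap within a transfection. Up to 4 members with the smallest p were named per list, and other genes were chosen with their values known. The members and all gene lists were chosen with earlier results of these data known. Exons that overlap another expressed gene over at least 10% of their bases make a gene uncertain. Promoters came from RefSeq (GRCh38.p14). The authors' own deposited comparisons of the transfections are not used here. The scripts were tested on simulated data. Alternatives changed the filter, pseudocount, unit, scaling, model, GC correction, block and libraries.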

Additional observations from a re-analysis of the deposited data

How the results depend on the processing

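Gene counts depended on the fit. Across both transfections, where 84 genes were called, the count was 18 with no filter, 158 in estimated reads with voom, 150 with 4 group means, 243 with GC correction, 3616 with a per-library GC slope as a covariate, a fit with at least 1 call in each of the 23 lists, 733 with all 12 libraries in the fit, and 1156 without both RES replicate 1 libraries, an alternative added after seeing the data. It was 5 with the replicate block and 82 with the block and GC correction together. Leaving out 1 library at a time gave 0 to 372. FPKM, the stricter filter, the other pseudocount, scaling by upper quartile or median of ratios, mitochondrial genes left out, no trend, protein-coding genes alone and a minimum difference of 1 gave counts within 1.5 times of 84, but not of the same genes: 39 of the 84 were called with median of ratios, 53 with upper quartile, 59 with FPKM, and 67 both with no trend and with mitochondrial genes left out, where 76 were measured. All 84 kept their sign wherever they were measured, but many of these fits could not have reversed it. The compounds did not overlap within a transfection, so leaving out libraries kept the sign. The replicate block, no trend, all 12 libraries and 4 group means leave the difference itself unchanged.

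With depc, where 1 gene was called, the count was 0 with the stricter filter, no filter, no trend, pseudocount 0.1, only the 4 libraries of that transfection, and the replicate block. It was 2 with upper quartile scaling, median of ratios, and block plus GC correction, 8 without both RES replicate 1 libraries, 50 with GC correction, 112 with all 12 libraries and 2139 with the GC slope. Leaving out any 1 library gave 0. With poly I:C, where 4 were called, it was 0 with the stricter filter, pseudocount 0.1, only the 4 libraries and the replicate block, 2 with voom, mitochondrial genes left out, no trend and protein-coding genes alone, 52 without both RES replicate 1 libraries, 60 with GC correction, 102 with all 12 libraries and 2047 with the GC slope. Leaving out 1 library gave 0 to 34. For the change between transfections, where 0 were called, it was 1 with all 12 libraries, 2 with voom, 3 with FPKM and 3 with protein-coding genes alone, and 0 to 5774 with 1 library left out. The cause of these shifts was not tested.

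The mitochondrial share of TPM differed by 8.86 points in the main setting and by 8.13 to 9.58 with 1 library left out. It differed by 5.29 in estimated reads, 10.01 with protein-coding genes alone and 9.06 with all 37 genes. The replicate block could not change the main value, since each group holds 1 library of each replicate number. Among the genes reported one by one, TLR3, a sensor of double-stranded RNA, differed by -0.44, and with 1 library left out by -0.80 (without RES depc replicate 1) to 0.020 (without RES poly I:C replicate 1), which reverses its sign. The replicate numbers are shared between groups but nothing ties them to a culture or day. Deviations of same-numbered RES and 2-CM samples correlated across genes at 0.49 with depc and -0.31 with poly I:C, so the numbers were not taken as pairs. Depth limits low genes, and a gene listed at 0 in a library can be a failed estimate.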

Other observations

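Canonical histone genes are a list chosen after the values were seen and are given with no test. Of 69 such genes, 40 were measured at the filter, and all 40 had negative differences. The median difference was -0.84 across both transfections, -0.84 with depc and -0.94 with poly I:C, and 6 of the 40 were among the genes called lower, against 0.213% of all genes. The number called was 13 with GC correction and 32 without both RES replicate 1 libraries, where 4.5% of all genes were called lower. For 32 of them the RES libraries lay below the 2-CM libraries in each transfection, against 6.31% of all genes. Mitochondrial genes left out of the TPM sum gave a median of -0.81, and GC correction -0.82. The level of these genes in a library of messenger RNA moves with the selection of polyadenylated RNA as well as with their transcription, and the part of either was not tested.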
